A study of Mus musculus with 8 samples.

Results

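Rab GTPases are small membrane-bound switches that give each compartment of vesicle traffic its identity. Exchange factors load them with GTP, GTPase-activating proteins switch them off, and prenylation with GDP dissociation inhibitors moves them on and off membranes, while effectors read the active form to move, tether and fuse vesicles. In T cells they sort antigen receptors through recycling endosomes and carry granules and cytokines to the surface, and in phagocytes they drive the maturation of phagosomes. The members described here are the genes whose symbol is Rab followed by a number and at most a letter and a further digit. They were 42 of the 11354 genes in the table. RefSeq lists 59 mouse symbols of that form, and the other 17, which are Rab3b, Rab3c, Rab9b, Rab13, Rab15, Rab17, Rab25, Rab27b, Rab30, Rab33a, Rab34, Rab36, Rab38, Rab39, Rab40b, Rab42 and Rab44, were not analysed here. By their best known place of action, 6 members were assigned to early endosomes, 6 to recycling endosomes, 9 to late endosomes, lysosomes and phagosomes, 10 to the endoplasmic reticulum and Golgi, 8 to the plasma membrane and secretion, and 3 to cilia or other sites.

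The study profiled poly(A) RNA of CD4+ T cells after transfer into RAG-/- hosts, which lack lymphocytes with rearranged receptors but keep myeloid and other innate cells. Donor cells were labelled Nlrp6-/- (knock-out, KO) in 4 libraries and Wild Type (WT) in 4 libraries, all of a Black6 background, and cells of both kinds were transferred in equal numbers. The hosts bear the numbers 1, 2, 4 and 5 under each label, and libraries are named after label and host, as in KO 1 and WT 1. Neither the age of the mice nor the targeted Nlrp6 allele is given in the sources used here, and the cells are placed in the host spleen by one label and in the colonic lamina propria by the protocol and design text. The labels do not say whether KO 1 and WT 1, and the other libraries of a shared host number, came from the same mouse, and p-values speak of the spread among these libraries only.

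Libraries held 35198192 to 40310721 counts. Nlrp6 itself, the gene of a NOD-like receptor, had 487, 329, 477 and 648 counts in KO 1, KO 2, KO 4 and KO 5, against 5, 3, 3 and 8 counts in WT 1, WT 2, WT 4 and WT 5. The targeted gene therefore went against the labels, and every direction below is that of libraries labelled KO or labelled WT, not of a genotype. T cell identity genes were abundant under both labels, with Cd3e, a subunit of the T cell receptor complex, at 505 ± 26.6 CPM in libraries labelled KO and 527 ± 39.7 CPM in libraries labelled WT (SD, n = 4 each; CPM is the count scaled to library size). A list of 20 myeloid markers, among them Csf1r and Adgre1, summed to 315, 541, 954 and 709 CPM in KO 1, KO 2, KO 4 and KO 5, against 103, 83.9, 63.6 and 76.0 CPM in WT 1, WT 2, WT 4 and WT 5. All 20 markers were measured, and 18 were called higher in the libraries labelled KO (90.0%, beside 6.2% of all genes). Of these, Spi1, Fcgr1, C3ar1 and Clec4a3 lay below 0.987 CPM in every library labelled WT. That value is the lowest fourth-highest CPM of any gene in the table. These genes were in the table only through the libraries labelled KO, and the direction of their calls followed from that. A dendritic cell list summed to 453 to 1304 CPM in libraries labelled KO and 63.1 to 109.5 CPM in libraries labelled WT. The 5 of 7 measured markers called higher were those of MHC class II presentation, Cd74, H2-Aa, H2-Ab1, H2-Eb1 and Ciita. Itgax and Zbtb46 were not called (log2 fold change 0.45 ± 0.29 and 0.10 ± 0.19, edgeR adjusted p = 0.405 and 0.833). Flt3, Xcr1, Clec9a, Cd209a and Siglech were not in the table, so no rise of dendritic cells is read from this sum. Summed neutrophil markers ran from 39.2 to 85.3 CPM under KO and from 14.3 to 23.0 CPM under WT. Of the 6 measured, 5 were called higher (83.3%, beside 6.2% of all genes), and limma-voom called 4. Among the 5, Trem1 and Clec4d lay below 0.987 CPM in every library labelled WT. Their presence in the table, and so the direction of their calls, came from the libraries labelled KO. Cxcr2, Retnlg and Ly6g were not in the table, so no rise of neutrophils is read from this sum. The 11 measured T cell markers summed to 7744 to 8458 CPM in libraries labelled KO and 8108 to 9263 CPM in libraries labelled WT, which overlapped, and 1 of the 11, Zap70, was called lower (log2 fold change -0.27 ± 0.07, edgeR adjusted p = 0.0304), while limma-voom called 4 lower. Overlap was also seen for the sums of B cell, natural killer and innate lymphoid, epithelial, stromal and red cell markers. In bulk samples fewer cells of a type and less RNA per cell cannot be told apart. KO 4 and KO 5 also carry an 8 where the other 6 libraries carry a 7 in the submitters' library names, and counts of called Rab genes and of called genes in each list of the Rab cycle are also given below without these 2 libraries.

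The promoters of Rab32, Rab31 and Rab20, which rose together, are shown because their expression followed the same order over the libraries labelled KO. They come from RefSeq on GRCm38.p6, each 250 bases before to 30 bases after the annotated start on the minus strand, at chr10:10558178-10558457 for Rab32, chr17:65772723-65773002 for Rab31 and chr8:11478611-11478890 for Rab20. Capitals mark GAGGAAG (read as CTTCCTC on the other strand), a core bound by the ETS family to which the myeloid factor PU.1 belongs, and CACGTG, the E-box core bound by TFEB and other basic helix-loop-helix factors.
Rab32: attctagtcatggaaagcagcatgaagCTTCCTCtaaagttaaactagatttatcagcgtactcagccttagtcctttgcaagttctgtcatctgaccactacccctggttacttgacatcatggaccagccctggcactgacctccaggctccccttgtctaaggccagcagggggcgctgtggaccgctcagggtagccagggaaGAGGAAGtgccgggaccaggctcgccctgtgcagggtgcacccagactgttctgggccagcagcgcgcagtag
Rab31: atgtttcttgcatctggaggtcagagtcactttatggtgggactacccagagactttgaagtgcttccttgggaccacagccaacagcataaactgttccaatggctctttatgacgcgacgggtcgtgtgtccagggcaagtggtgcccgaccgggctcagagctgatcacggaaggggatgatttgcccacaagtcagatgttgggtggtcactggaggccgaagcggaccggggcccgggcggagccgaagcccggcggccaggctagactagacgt
Rab20: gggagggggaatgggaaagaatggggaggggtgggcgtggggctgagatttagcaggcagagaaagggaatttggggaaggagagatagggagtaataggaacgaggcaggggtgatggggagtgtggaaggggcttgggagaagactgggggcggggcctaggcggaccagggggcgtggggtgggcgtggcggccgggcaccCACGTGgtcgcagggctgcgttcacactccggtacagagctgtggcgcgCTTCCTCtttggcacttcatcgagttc
Both strands were searched for these 2 motifs and for TGANTCA, the AP-1 core, and the motifs were chosen after the sequences were seen. The Rab32 window held GAGGAAG in 2 places, the Rab20 window held GAGGAAG and CACGTG once each, and the Rab31 window held none of the 3 motifs. GAGGAAG was present in 7 of 43 windows (16.3%) of the 36 members that were matched and in 12.2% of all 32541 promoter windows of this length. CACGTG was present in 6 of the 43 (14.0%) and in 6.81% of all windows, and TGANTCA in 1 of the 43 and in 7.45% of all windows. Rab7b and Rab4a were not among the members matched. Promoter windows of the members had a median GC content of 62.5% and a median of 21 CpG dinucleotides, against 52.5% and 7 over all windows.

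Between the labels, 7 of the 42 Rab genes changed. Rab7b, Rab32, Rab31 and Rab20, which act on late endosomes, lysosome-related organelles, early endosomes and phagosomes, rose in the libraries labelled KO, and Rab1a of the endoplasmic reticulum to Golgi route rose slightly. Rab4a, which returns cargo from early endosomes to the surface, and Rab27a, which docks secretory granules at the plasma membrane, fell. edgeR's quasi-likelihood test with Benjamini-Hochberg adjustment over all 11354 genes called 7 of 42 members (16.7%) at an adjusted p below 0.05, beside 10.0% of all genes. Higher calls were 5 of 42 (11.9%), beside 6.2% of all genes, and lower calls were 2 of 42 (4.76%), beside 3.84%. The higher calls include Rab7b, whose direction followed from its presence in the table only through the libraries labelled KO. The CPM of the 2 labels did not overlap for 9 of the 42 members (21.4%), beside 16.0% of all genes. Of these 9, the libraries labelled KO lay above in 5, beside 8.6% of all genes, and below in 4, beside 7.37%, and the pair that did not overlap without passing the test were Rab8b and Rab26. Within 0.2 log2 units of equality lay 34 of 42 members (80.95%), beside 75.2% of all genes. The median log2 fold change (KO over WT, here and below) was -0.02 over the members and -0.003 over all genes, and the median size was 0.07 and 0.09. Without WT 4 the higher calls among members were 3, beside 516 over the whole table, against 704 with all libraries. When KO 1 and KO 2 alone stood for the KO label 3 members were called higher and 2 lower, beside 568 and 342 over the whole table. Without KO 4 the lower calls were 4, beside 509 over the whole table. Over the whole table the 436 lower calls became 276 without KO 1 and 277 without WT 1.

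**Figure D1:**
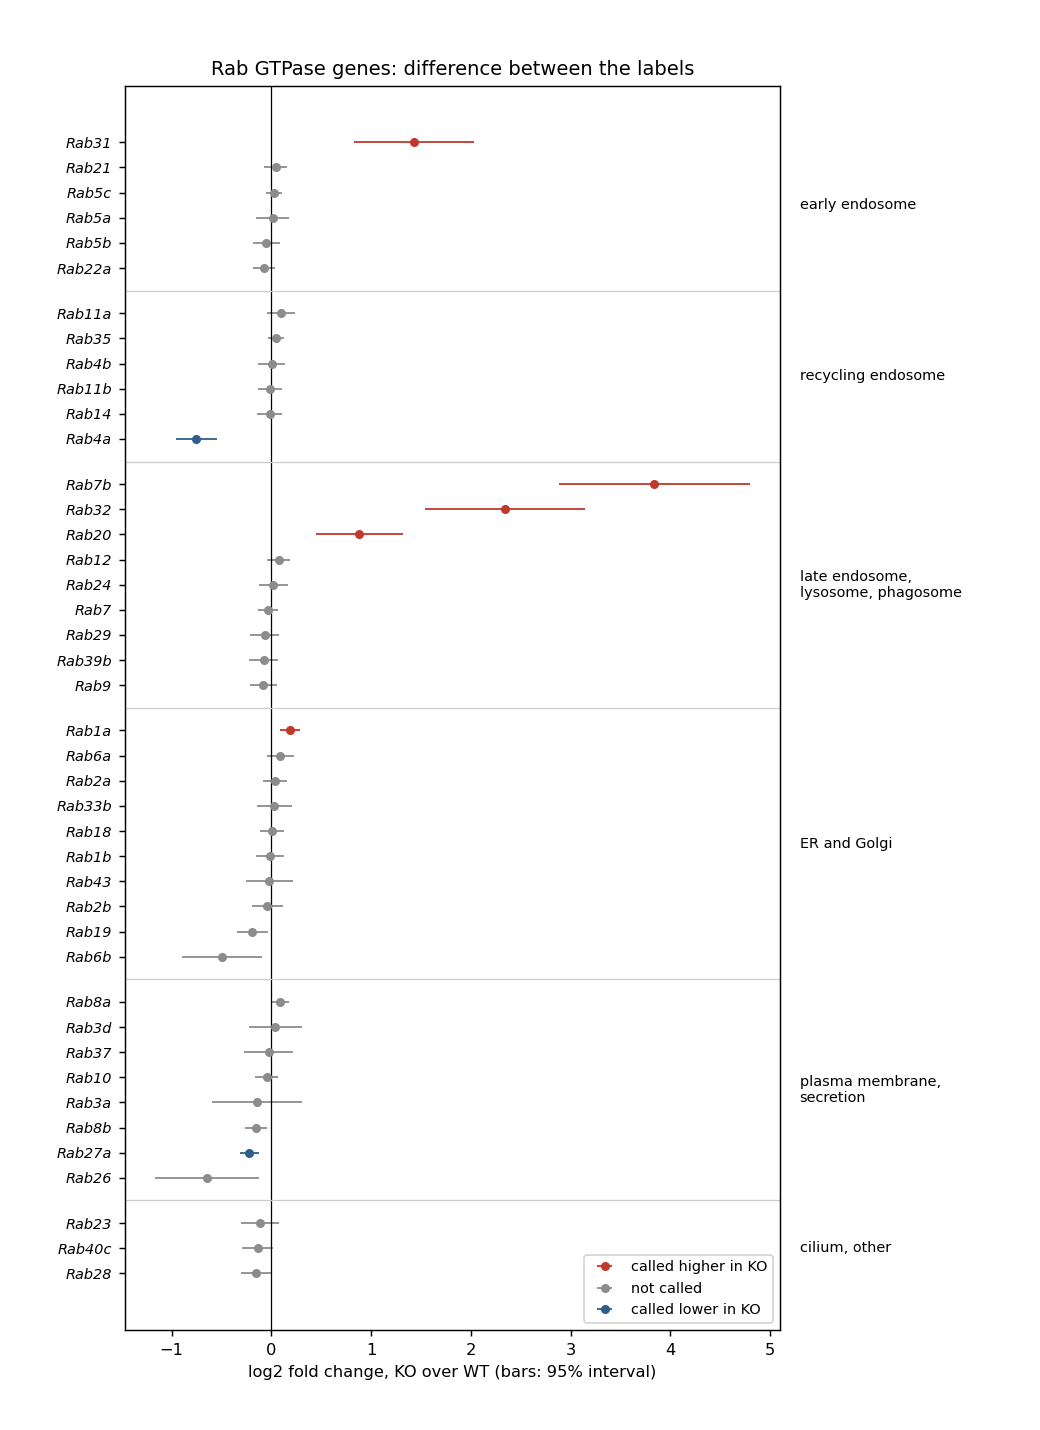
Log2 fold change of each of the 42 Rab genes, libraries labelled KO over libraries labelled WT, with its 95% interval from edgeR's quasi-likelihood fit (n = 4 each), grouped by place of action. Red points were called higher, blue points lower and grey points were not called. Rab7b at 3.84 and Rab4a at -0.75 are the extremes, and 34 members (80.95%) lie within 0.2 of zero, beside 75.2% of all genes.

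In level per length (RPKM, the scaled CPM per kilobase of the deposited gene length), the family spanned Rab5c at a mean of 112 RPKM over the 8 libraries to Rab7b at 0.868 RPKM. Rab5c of early endosomes, Rab8a (109.5 RPKM) and Rab8b (105 RPKM) of the exocytic route led, and their libraries overlapped one another. Rab1b followed at 77.2 RPKM with every library below the lowest library of Rab8b. Rab7 (61.9 RPKM), Rab27a (58.6 RPKM) and Rab35 (58.2 RPKM) came next and overlapped. The 8 most abundant members held 52.3% of the family's summed mean of 1203 RPKM. The family's sum was 1198 ± 35.2 RPKM in libraries labelled KO and 1208 ± 21.1 RPKM in libraries labelled WT (SD, n = 4 each), which overlapped. Of the 8 members under 5 RPKM 3 were called (37.5%), beside 15.5% of all genes under 5 RPKM, and of the 34 at or above it 4 (11.8%), beside 7.43% of all genes there. Rab7b, among the 3 called under 5 RPKM, was in the table only through the libraries labelled KO.

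**Figure D2:**
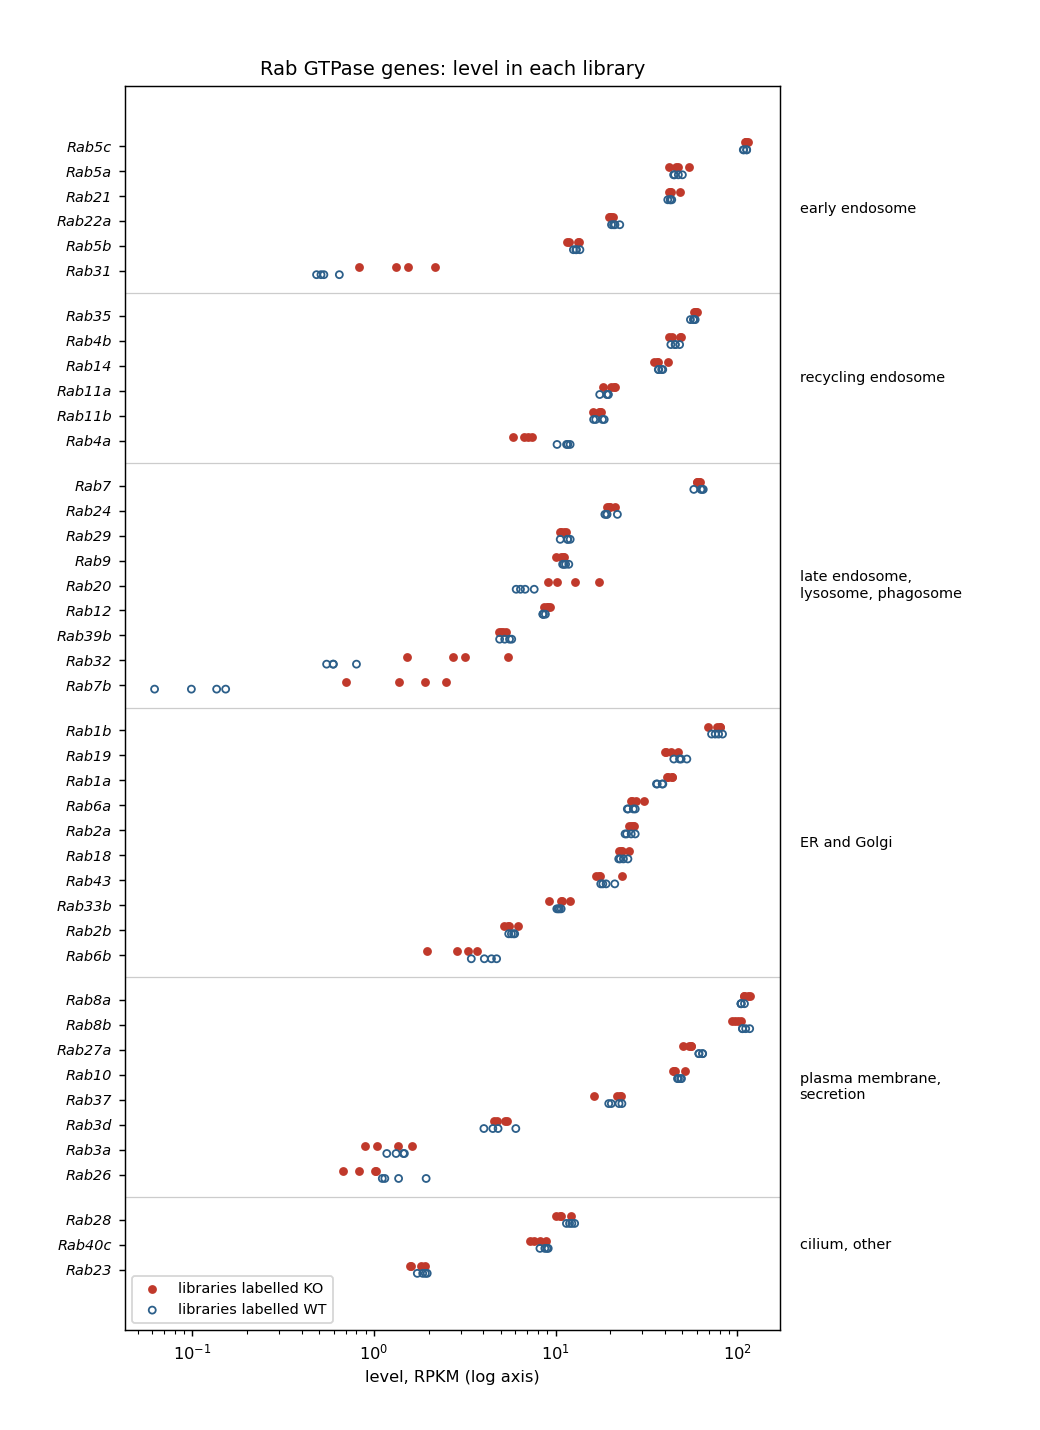
Level of each Rab gene in every library in RPKM on a log axis, grouped by place of action and ordered by mean level; filled red points are the 4 libraries labelled KO and open blue points the 4 labelled WT. Every KO point lies above every WT point for Rab7b, Rab32, Rab31, Rab20 and Rab1a. For Rab4a, Rab27a, Rab8b and Rab26 every KO point lies below. The gap is narrow for Rab31 and Rab20, where KO 1 is 1.28 and 1.20 times the highest library labelled WT. The most abundant member, Rab5c at 112 RPKM, overlaps.

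Among the 9 members of late endosomes, lysosomes and phagosomes, Rab7b, Rab32 and Rab20 rose and the other 6 did not pass the test. Rab7b, known from human cells for traffic between late endosomes and the trans-Golgi network, had 3.16, 6.21, 11.3 and 8.57 CPM in KO 1, KO 2, KO 4 and KO 5, against 0.685, 0.611, 0.278 and 0.444 CPM in WT 1, WT 2, WT 4 and WT 5. Every library labelled KO was above every library labelled WT, and KO 1, the lowest of its label, was 4.61 times the highest, WT 1. The underlying counts were 122, 244, 384 and 340 under KO and 28, 24, 11 and 17 under WT. Its log2 fold change was 3.84 ± 0.43 (SE, edgeR's quasi-likelihood test, adjusted p = 0.000512), a ratio of 14.3. All libraries labelled WT lay below 0.987 CPM, the lowest fourth-highest CPM of any gene in the table. Rab7b was therefore in the table only through the libraries labelled KO, and the direction of its call followed from that. Rab7b lies on chromosome 1 from 131688681 to 131715443 (GRCm38).

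Rab32, a regulator of lysosome-related organelles such as melanosomes, had 3.13, 5.60, 11.3 and 6.53 CPM in KO 1, KO 2, KO 4 and KO 5, against 1.13, 1.22, 1.64 and 1.23 CPM in WT 1, WT 2, WT 4 and WT 5. KO 4 was the highest library and KO 1 the lowest under its label, still 1.90 times the highest library labelled WT. The log2 fold change was 2.34 ± 0.36 (edgeR adjusted p = 0.00255). Rab20, which takes part in phagosome maturation in macrophages, had 6.60, 7.38, 12.6 and 9.23 CPM in KO 1, KO 2, KO 4 and KO 5, against 4.63, 4.38, 4.91 and 5.51 CPM in WT 1, WT 2, WT 4 and WT 5. The labels did not overlap, although KO 1 was only 1.20 times WT 5. Its log2 fold change was 0.88 ± 0.19 (edgeR adjusted p = 0.0191). That call was lost without WT 1, WT 2 or WT 4 (adjusted p = 0.0584, 0.0562 and 0.0512), and with KO 1 and KO 2 alone under KO it was 0.53 with adjusted p = 0.0588. Of Rab20's distinct 81-base stretches, 21.1% lie antisense to another transcript, E230013L22Rik, and the strand setting of the counting is not given in the sources used here.

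The most abundant member of this group, Rab7, the general late endosome GTPase, had 60.3, 62.0, 62.3 and 60.0 RPKM in KO 1, KO 2, KO 4 and KO 5, against 64.3, 63.2, 65.1 and 57.8 RPKM in WT 1, WT 2, WT 4 and WT 5. The values overlapped, and the 95% interval of the log2 fold change ran from -0.13 to 0.07 (edgeR adjusted p = 0.735). The remaining 5, Rab9 of late endosome to Golgi transport, Rab12, Rab24, which takes part in autophagy, Rab29 and Rab39b, had log2 fold changes from -0.08 (Rab9) to 0.07 (Rab12). Within the group, Rab7b was the scarcest at 1.62 RPKM in libraries labelled KO and 0.112 RPKM in libraries labelled WT, so that the ratio of Rab7b to Rab7 per length was 0.0116 to 0.0402 in libraries labelled KO and 0.000950 to 0.00237 in libraries labelled WT.

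Of the 6 early endosome members, Rab31 rose and the rest did not pass. Rab31, a relative of Rab22a that in human cells links the trans-Golgi network to endosomes, had 3.42, 5.45, 8.98 and 6.40 CPM in KO 1, KO 2, KO 4 and KO 5, against 2.67, 2.12, 2.00 and 2.19 CPM in WT 1, WT 2, WT 4 and WT 5. The labels did not overlap, and KO 1 was 1.28 times WT 1, the highest library labelled WT. The log2 fold change was 1.43 ± 0.27 (edgeR adjusted p = 0.00774). Rab5c, the most abundant member of the family, had 116, 111, 112 and 112 RPKM in KO 1, KO 2, KO 4 and KO 5, against 113, 113, 108 and 109 RPKM in WT 1, WT 2, WT 4 and WT 5. Those values overlapped, with a 95% interval from -0.05 to 0.10 log2 units. Rab5a and Rab5b, which with Rab5c drive the fusion of early endosomes, lay at 0.01 and -0.05, Rab21, known for integrin traffic, at 0.04, and Rab22a at -0.08.

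Rab7b, Rab32, Rab31 and Rab20 shared an order over the libraries labelled KO that the summed myeloid markers also showed, with KO 1 lowest, then KO 2, KO 5 and KO 4. The higher 2, KO 5 and KO 4, are also the libraries with an 8 in their names, so a rise by this order and one by that code cannot be told apart. The share of all genes with this order was not computed. From lowest to highest of these 4 libraries the span was 3.57-fold for Rab7b, 3.61-fold for Rab32, 2.63-fold for Rab31 and 1.90-fold for Rab20, beside 3.03-fold for the marker sum. Over the libraries labelled WT, Rab7b again followed the order of the marker sum, with WT 4 lowest and WT 1 highest, and Rab32, Rab31 and Rab20 did not. Rab1a and Rab27a followed it under neither label, and Rab4a followed it under WT only. The part of the myeloid markers in these differences was not tested.

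**Figure D3:**
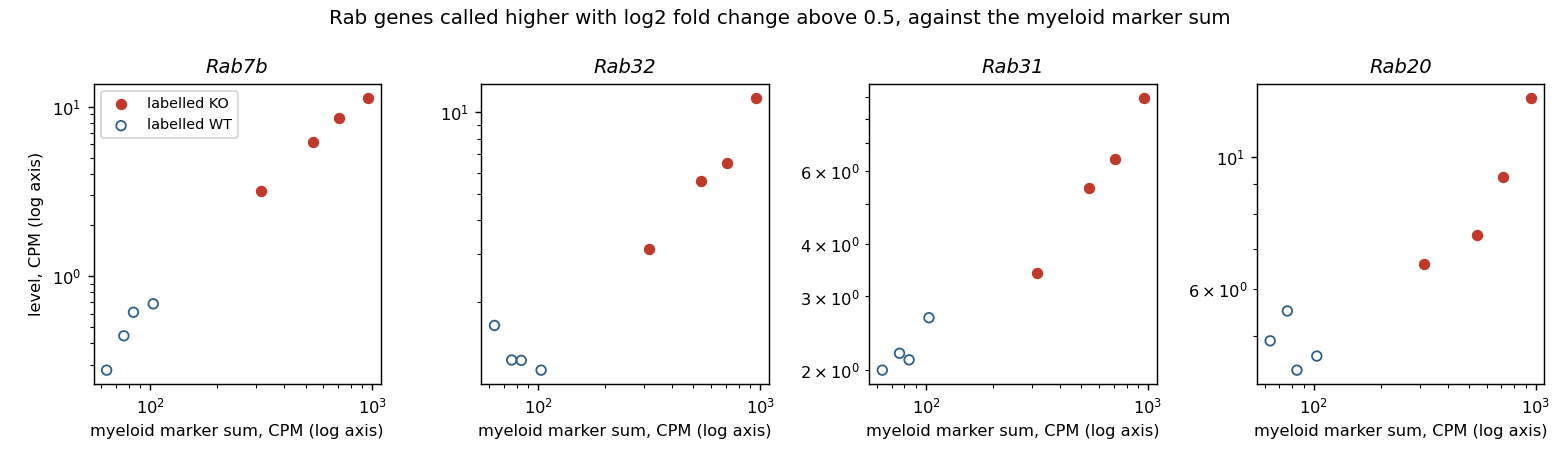
Level of Rab7b, Rab32, Rab31 and Rab20 in CPM against the summed CPM of 20 myeloid markers, both on log axes, with 1 point per library; filled red points are labelled KO and open blue points labelled WT. In each panel KO 1, at a marker sum of 315 CPM, is the lowest red point and KO 4, at 954 CPM, the highest.

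Among the 6 recycling endosome members, Rab4a fell and the others did not pass. Rab4a had 10.5, 9.42, 9.94 and 8.22 CPM in KO 1, KO 2, KO 4 and KO 5, against 17.0, 16.5, 14.4 and 16.2 CPM in WT 1, WT 2, WT 4 and WT 5. No library labelled KO reached the lowest library labelled WT, WT 4. The log2 fold change was -0.75 ± 0.09 (edgeR adjusted p = 0.000807), a ratio of 0.594. The summed T cell markers stood at a ratio of 0.941, and their part in the fall of Rab4a was not tested. Its close relative Rab4b was at 69.5 ± 5.20 CPM in libraries labelled KO and 69.2 ± 3.14 CPM in libraries labelled WT, although 51.7% of the 81-base stretches of Rab4b are shared with the overlapping model Gm21983 and its count is uncertain. The ratio of Rab4a to Rab4b per length was 0.148 ± 0.0199 in libraries labelled KO and 0.249 ± 0.0186 in libraries labelled WT (SD, n = 4 each), without overlap. Rab35, which returns the T cell receptor to the immunological synapse in human T cells, was the most abundant of the group, with 60.1, 58.5, 59.7 and 58.1 RPKM in KO 1, KO 2, KO 4 and KO 5, against 58.8, 57.5, 55.3 and 57.8 RPKM in WT 1, WT 2, WT 4 and WT 5. These overlapped, and its 95% interval ran from -0.04 to 0.12. Rab11a and Rab11b, the slow recycling pair, and Rab14 had log2 fold changes from -0.02 (Rab14) to 0.09 (Rab11a).

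The 8 members of the plasma membrane and secretion group included Rab27a, which fell. Rab27a, needed for the release of lytic granules by cytotoxic T cells, had 188, 174, 191 and 192 CPM in KO 1, KO 2, KO 4 and KO 5, against 222, 212, 222 and 212 CPM in WT 1, WT 2, WT 4 and WT 5. All libraries labelled KO were below all libraries labelled WT by a small margin. The log2 fold change was -0.22 ± 0.04 (edgeR adjusted p = 0.00985), a ratio of 0.858. Rab8b, an exocytic GTPase, had 468, 484, 500 and 445 CPM in KO 1, KO 2, KO 4 and KO 5, against 512, 533, 561 and 511 CPM in WT 1, WT 2, WT 4 and WT 5. The labels did not overlap, but its log2 fold change of -0.16 ± 0.05 did not pass the test (edgeR adjusted p = 0.0842); it passed with DESeq2 (0.0215), limma-voom (0.0419), scaling to the total count (0.0355) and without KO 4 (0.0488). Rab8a, its most abundant relative, had 114, 110, 118 and 109 RPKM in KO 1, KO 2, KO 4 and KO 5, against 110, 105, 105 and 105 RPKM in WT 1, WT 2, WT 4 and WT 5. Its libraries overlapped and its 95% interval ran from -0.005 to 0.17.

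The ratio of Rab8a to Rab8b per length was 1.08 to 1.17 in libraries labelled KO and 0.898 to 1.02 in libraries labelled WT, without overlap. Rab26, a GTPase of secretory granules, was at 1.27 ± 0.24 CPM in libraries labelled KO and 1.99 ± 0.55 CPM in libraries labelled WT. Its log2 fold change of -0.65 ± 0.23 did not pass (edgeR adjusted p = 0.125). Rab3a and Rab3d of regulated exocytosis, Rab10, known for glucose transporter delivery, and Rab37 lay between -0.14 (Rab3a) and 0.04 (Rab3d). The summed level of the 8 was 333 to 352.3 RPKM in libraries labelled KO and 352.6 to 362 RPKM in libraries labelled WT, which did not overlap by a narrow margin. This sum restates Rab8b (mean 99.3 RPKM under KO and 111 RPKM under WT) and Rab27a (54.1 and 63.1 RPKM), and is not a separate result. The sums of the other 5 groups overlapped.

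In the endoplasmic reticulum and Golgi group of 10, Rab1a rose slightly. Rab1a, which carries vesicles from the endoplasmic reticulum to the Golgi, had 134, 141, 143 and 133 CPM in KO 1, KO 2, KO 4 and KO 5, against 125, 126, 118 and 116 CPM in WT 1, WT 2, WT 4 and WT 5. The labels did not overlap, with KO 5 the lowest under its label and WT 2 the highest under the other. The log2 fold change was 0.18 ± 0.04 (edgeR adjusted p = 0.0277), and the call was lost when KO 1, KO 2, KO 4, WT 4 or WT 5 was left out (highest adjusted p = 0.0886) and with KO 1 and KO 2 alone under KO (0.0896). Rab1b, its closest relative and the most abundant of the group, had 80.4, 77.3, 69.3 and 80.1 RPKM in KO 1, KO 2, KO 4 and KO 5, against 83.1, 79.1, 72.3 and 75.8 RPKM in WT 1, WT 2, WT 4 and WT 5. The values overlapped, with a 95% interval from -0.15 to 0.12. Per length the ratio of Rab1a to Rab1b was 0.514 to 0.636 in libraries labelled KO and 0.465 to 0.502 in libraries labelled WT, without overlap.

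Rab6b, a Golgi GTPase best known from neurons, was at 14.0 ± 3.55 CPM in libraries labelled KO and 19.7 ± 2.66 CPM in libraries labelled WT, and its log2 fold change of -0.50 ± 0.18 did not pass (edgeR adjusted p = 0.127). The ratio of the ubiquitous Rab6a to Rab6b was 7.53 to 13.5 per length in libraries labelled KO and 5.30 to 7.23 in libraries labelled WT, again without overlap. Rab19 stood at -0.19 ± 0.07 and did not pass either (edgeR adjusted p = 0.121), although it passed with limma-voom (0.0422) and without KO 4 (0.0382). Rab2a and Rab2b, Rab6a, Rab18, known for lipid droplets, Rab33b, which acts in autophagy, and Rab43 lay between -0.04 (Rab2b) and 0.09 (Rab6a). Of 10 pairs of close relatives examined, the ratio per length did not overlap between the labels in 5, namely Rab1a to Rab1b, Rab4a to Rab4b, Rab6a to Rab6b, Rab7b to Rab7 and Rab8a to Rab8b. It overlapped for Rab2a to Rab2b, Rab3a to Rab3d, Rab5a to Rab5b, Rab5a to Rab5c and Rab11a to Rab11b. Ratios with Rab1a, Rab4a or Rab7b restate members already called, and no share over other gene pairs was computed, so nothing is read from the count.

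The 3 members of cilia or other sites were Rab28, Rab23, a regulator of Hedgehog signalling, and Rab40c, part of a ubiquitin ligase. Rab28 had 10.1, 10.6, 12.2 and 10.8 RPKM in KO 1, KO 2, KO 4 and KO 5, against 11.5, 12.7, 11.9 and 12.3 RPKM in WT 1, WT 2, WT 4 and WT 5. The labels overlapped through KO 4 and the log2 fold change was -0.15 ± 0.07 (edgeR adjusted p = 0.235). Rab23 and Rab40c stood at -0.12 and -0.14, and neither passed.

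**Figure D4:**
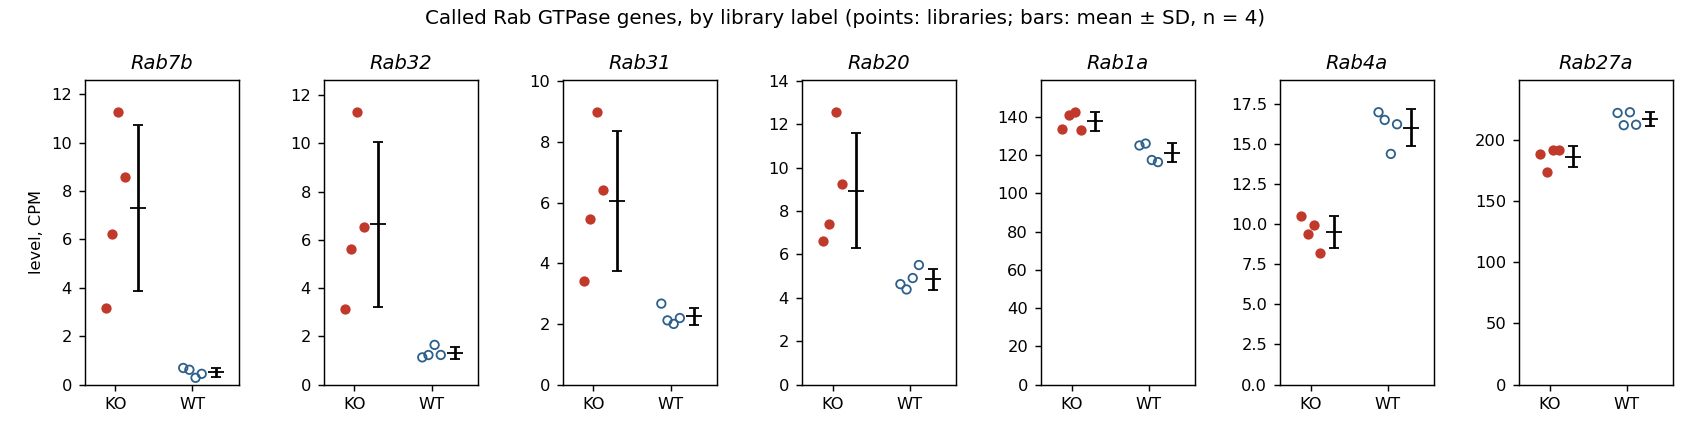
Level in CPM of the 7 Rab genes that passed the test, with 1 panel per gene and each axis starting at 0; points are libraries, filled red under KO and open blue under WT, and bars are the mean ± SD (n = 4). Under KO the 4 points of Rab7b, Rab32, Rab31 and Rab20 spread up to 3.61-fold, whereas those of Rab1a, Rab4a and Rab27a stay close together.

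The machinery that acts on Rab proteins was read from 4 lists that hold 125 distinct measured genes of 143 listed, of which 13 rose and 12 fell (20.0%, beside 10.0% of all genes). With KO 2 left out 15 were called, and without WT 2 there were 16, beside 917 and 894 over the whole table. Among those that rose, Rab3il1, Tbc1d8 and Rab11fip5 lay below 0.987 CPM in every library labelled WT. They were in the table only through the libraries labelled KO, and the direction of their calls followed from that. Among 34 exchange factors 5 rose (14.7%, beside 6.2% of all genes) and 3 fell (8.82%, beside 3.84%). When KO 1 and KO 2 alone stood for the KO label, 2 were called higher and 1 lower, beside 568 and 342 over the whole table. Those calls were of Rab3il1, Dennd4a and Rin3. Rab3il1, an exchange factor of Rab8, was at 3.24 ± 1.32 CPM in libraries labelled KO and 0.347 ± 0.218 CPM in libraries labelled WT (log2 fold change 3.21 ± 0.48, edgeR adjusted p = 0.00221). Rab3gap2, a subunit of the complex that activates Rab18, rose by 0.20 ± 0.04 (adjusted p = 0.0143), a call lost in that comparison (0.0984). Rin3, which activates the Rab5 family, fell by 0.42 ± 0.10 (adjusted p = 0.0236), to 141 ± 17.9 CPM in libraries labelled KO, against 187 ± 18.4 CPM in libraries labelled WT. Its call was lost without KO 1, KO 2, KO 5, WT 1 or WT 2 (highest adjusted p = 0.0694). Dennd4a, an exchange factor of Rab10, rose by 0.58 ± 0.14 (adjusted p = 0.0244), with KO 5 at 298 CPM just under WT 5 at 299 CPM, and its call was lost without KO 1, KO 2, WT 1, WT 2 or WT 4 (highest adjusted p = 0.0718).

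Of 35 GTPase-activating proteins, 3 rose and 3 fell (8.57% each, beside 6.2% and 3.84% of all genes). Without KO 4 and KO 5 the calls were 4 higher and 2 lower, beside 568 and 342 over the whole table. Tbc1d8 and Tbc1d9, which carry the TBC domain that switches Rab proteins off, rose by 2.88 ± 0.30 and 2.72 ± 0.30 (edgeR adjusted p = 0.000415 and 0.000488). Tbc1d9 was at 6.17 ± 2.36 CPM in libraries labelled KO and 0.929 ± 0.239 CPM in libraries labelled WT. Rabgap1l, which in human cells acts on Rab22a, fell by 0.61 ± 0.09, to 124 ± 5.61 CPM in libraries labelled KO, against 188 ± 25.3 CPM in libraries labelled WT (adjusted p = 0.00176). Tbc1d2b, of the same domain family, fell by 0.39 ± 0.05 (adjusted p = 0.00148). Among the 10 genes of prenylation and extraction, edgeR's quasi-likelihood test, DESeq2 and limma-voom each called 0, as did edgeR without KO 4 and KO 5. With all libraries edgeR called 10.0% of all genes, and 1 of these 10 had an unadjusted p under 0.05. That gene was Gdi2, a GDP dissociation inhibitor, at 480.2 ± 36.6 CPM in libraries labelled KO and 542 ± 40.9 CPM in libraries labelled WT (log2 fold change -0.18 ± 0.07, adjusted p = 0.166). Praf2, a prenylated Rab acceptor, Rabif, a chaperone of nucleotide-free Rab proteins, and Chm, the Rab escort protein that presents them for prenylation, had log2 fold changes of -0.10, -0.09 and 0.06.

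Of 47 genes listed as effectors 5 rose (10.6%, beside 6.2% of all genes) and 6 fell (12.8%, beside 3.84%). Without KO 4 and KO 5 the calls were 6 higher and 6 lower, beside 568 and 342 over the whole table. Rab11fip5, which couples Rab11 to recycling endosomes, rose by 2.11 ± 0.32, to 2.51 ± 0.98 CPM in libraries labelled KO, against 0.575 ± 0.141 CPM in libraries labelled WT (edgeR adjusted p = 0.00255). Eea1, the tether through which Rab5 docks early endosomes, fell by 0.57 ± 0.10, to 58.0 ± 10.0 CPM under KO, against 85.9 ± 3.80 CPM under WT (adjusted p = 0.00692). Exph5, an effector of Rab27a, fell by 1.36 ± 0.26, to 5.46 ± 2.01 CPM under KO, against 13.9 ± 3.86 CPM under WT (adjusted p = 0.00933). Rilpl2, a RILP-like protein that binds Rab8 and Rab10, fell by 0.44 ± 0.08 (adjusted p = 0.00565). The other genes of this list that rose were Lrrk2, a kinase of Rab proteins, its relative Lrrk1, the lipid kinase gene Pik3c3 and Sh3bp5, which is known as an exchange factor of Rab11 rather than an effector, and Rab11fip3, Rab11fip4 and Inpp5b were the others that fell.

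**Figure D5:**
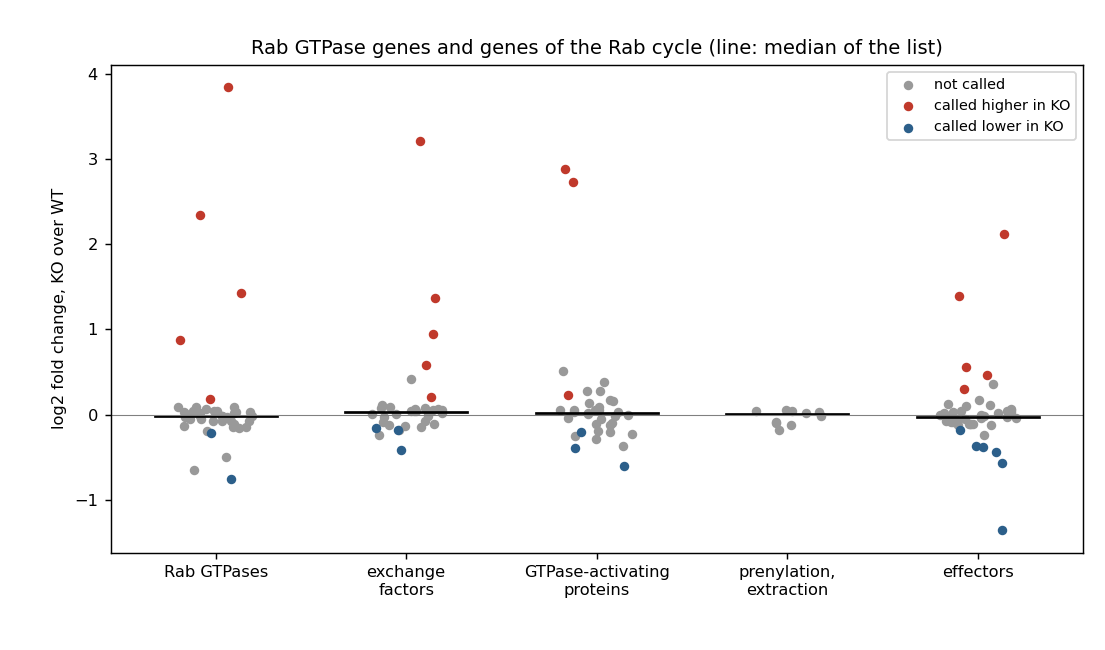
Log2 fold change of the 42 Rab genes and of the genes of 4 lists of the Rab cycle, libraries labelled KO over libraries labelled WT; each point is a gene, red where called higher, blue where called lower, grey where not called, and each line is the list's median. Every median is within 0.1 of zero, and the largest rise in the 4 lists is Rab3il1 at 3.21.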

How the data were processed

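Single reads of 81 bases from TruSeq Stranded mRNA libraries (NextSeq 500), per the labels' protocols, were aligned with STAR to mm10, per the submitters' processing notes; no counting tool, annotation or strand setting is given in the sources used here. The authors deposited raw counts per gene with gene lengths, for 11354 genes in 8 libraries, and genes of low count are absent from the table (the lowest fourth-highest CPM was 0.987). Counts were scaled with TMM factors and tested in edgeR 4.0.16 (estimateDisp, glmQLFit, glmQLFTest, label alone; R 4.3.3), KO over WT, with Benjamini-Hochberg adjustment over all genes; filterByExpr kept all 11354, and the common biological coefficient of variation was 0.116. The SE is the absolute log2 fold change over the square root of F, and RPKM are scaled CPM per kilobase of deposited length. The method was tested on simulated data. Alternatives were RLE factors, total counts, filters, DESeq2 1.42.0, limma-voom (limma 3.58.1), the host number as a block, the library code as a term and each library left out; the comparison within library code 7 was added after seeing the data. Members and lists were chosen with earlier results of these data known. Values are given for members called and the most abundant of each group, and for the 4 genes with the smallest p of each Rab cycle list; Rab8b, Rab26, Rab6b, Rab19, Rab4b and the further effectors were added after their values were seen. Shared 81-base stretches were counted against GENCODE transcripts.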

Additional observations from a re-analysis of the deposited data

Results flagged for a closer look

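Each Rab gene was screened within each label for a library standing apart from its 3 companions, 84 groups of 4 in all. Chance flags about 1 in 20 such groups, and 6 were found, of which 4 were KO 4. Rab10 was at 180.3 CPM in KO 4, against 157 to 161 CPM in the other libraries labelled KO, and Rab21 was at 88.5 CPM, against 77.0 to 78.4 CPM. Rab43 was at 129 CPM in KO 4, against 92.7 to 96.7 CPM, although 74.1% of its 81-base stretches are shared with the overlapping model Gm45140. Rab37 was at 45.5 CPM in KO 4, against 61.4 to 64.6 CPM in its companions. Under WT, Rab8a was at 221 CPM in WT 1, against 211 to 212 CPM, and Rab24 at 40.9 CPM in WT 2, against 34.9 to 35.8 CPM. None of the 6 genes was called between the labels.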

How the results depend on the processing

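Over 17 alternatives, Rab7b (log2 fold change 3.20 to 4.09), Rab32 (1.74 to 2.57), Rab31 (0.98 to 1.62), Rab4a (-0.81 to -0.69) and Rab27a (-0.26 to -0.19) were called in every one, Rab20 in 12 and Rab1a in 10. Every alternative used the same deposited table. Rab7b was in it only through the libraries labelled KO, so the direction of its call could not be checked by them. Leaving out each library in turn gave 5 to 8 called members, 3 to 5 higher and 2 to 4 lower. Higher members were 3 with the library code as a term and within library code 7, beside 496 and 568 over the whole table. Lower members were 4 with limma-voom, beside 589 over the whole table. The host numbers are not shown to pair the libraries: deviations of same-numbered libraries correlated at -0.06, 0.18, -0.14 and 0.26 for hosts 1, 2, 4 and 5. With the host number as a replicate block, 4 members were lower, Rab19 and Rab6b being added, beside 382 lower over the whole table. All 7 calls were kept, and Dennd4a and Rab3gap2 did not pass. With the library code as a term the whole table gave 745 calls, 249 of them lower, and the Rab cycle genes gave 15, with 8 higher and 7 lower. Leaving out a library in turn gave 804 to 1197 calls over the table, 516 to 709 higher and 276 to 509 lower, and 15 to 24 calls of Rab cycle genes, 8 to 13 higher and 7 to 14 lower. Rab1b, not called, changed sign to 0.0035 with limma-voom, 0.023 with the library code as a term and 0.023 within library code 7, and leaving out a library in turn gave -0.053 to 0.029, above zero without KO 4 and without WT 1. The causes of these changes were not tested. RLE factors and total counts kept all 7 called members. The setting without a filter repeated the main fit, since filterByExpr kept all 11354 genes. The filter of 1 CPM in 4 libraries changed little, with 1139 calls over the whole table beside 1140. Both are counted among the 17 alternatives, but their keeping of all 7 calls followed from the table and is no separate check. Calls of scarce members rest on few counts, down to 11 for Rab7b in WT 4.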

Other observations

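Rab7b has a neighbour that moved the other way. It lies 13174 bases from Ctse, which encodes the endolysosomal aspartic protease cathepsin E, on chromosome 1 (131638314 to 131675507, GRCm38). Ctse was at 68.3 ± 6.14 CPM in libraries labelled KO and 322 ± 25.0 CPM in libraries labelled WT (SD, n = 4 each). Its log2 fold change was -2.24 ± 0.08 (edgeR's quasi-likelihood test, adjusted p = 5.00e-07), while that of Rab7b was 3.84. Rab7b was in the table only through the libraries labelled KO, and the direction of its call followed from that. Rab29, 151767 bases from Rab7b on the far side from Ctse, stood at -0.07 and was not called. Levels of Ctse under KO spanned 61.6 to 76.0 CPM, a narrower spread than the 3.57-fold of Rab7b over the same libraries.

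Some members overlap other transcripts. On their own strand Rab43 shared 74.1% and Rab4b 51.7% of their 81-base stretches. For Rab2b 53.7% and for Rab24 43.1% lie antisense to another transcript, with 0% shared on their own strand. The libraries were stranded, but the strand setting of the counting is not given, and none of these genes was called. Rab7b, Rab32, Rab31, Rab1a and Rab4a shared none of their stretches with another gene on either strand, and Rab27a shared 1.93% on its own strand with the pseudogene Gm27186 and the gene Fibp.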
